A study of Mus musculus with 4 samples.

Results

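The growth pathway that runs from PI3K through AKT to FOXO3 and mTOR was followed through 9 genes in mouse oocytes with and without γ-irradiation. The genes, here called members, are Pik3ca, Pdpk1, Akt1, Foxo3, Tsc1, Tsc2, Mtor, Rptor and Rps6kb1. They were picked by name for their role, with earlier results of these data known. All 9 were found by NCBI gene ID among the 17374 genes of the table, and they hold 46 of its 45505 RefSeq transcripts. Germinal vesicle (GV) stage oocytes, which are arrested in meiotic prophase, came from unprimed females on day 16 of post-natal development, C57/Bl6/DBA2J F1 hybrids in the study's methods. In 2 control libraries the oocytes received no radiation. In 2 irradiated libraries they received 5 Gy from a cesium source and were collected 24 h later. Each library is a pool of oocytes stripped of cumulus cells and of the zona pellucida. Both conditions were held in medium with milrinone, a phosphodiesterase inhibitor that keeps oocytes in meiotic arrest, so no library shows the pathway without it. The design text describes the controls as sequenced directly, and whether they spent the same 24 h in culture is not stated, so irradiation and time in culture cannot be told apart. Polyadenylated RNA was captured with oligo(dT), and RNA level is the only measurement.

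In the oocyte, KIT ligand made by granulosa cells binds the receptor KIT and switches on PI3K, whose lipid product brings the kinases PDK1 and AKT together at the membrane. AKT phosphorylates FOXO3, which then leaves the nucleus, and nuclear FOXO3 is known for holding the oocytes of primordial follicles dormant. AKT also restrains the TSC1 and TSC2 complex, the brake on the small GTPase RHEB, so that mTORC1 (mTOR with its scaffold raptor) phosphorylates S6 kinase and translation rises. Most of these steps act on the protein by phosphorylation or location, which RNA-seq does not measure.

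The estimated counts summed to between 33349466 and 37232818 per library. All 10 oocyte markers examined, among them Zp3, Gdf9 and Nobox, had over 3 counts in each library, and their summed level lay between 44706.7 and 50970.3 TPM, a unit of level corrected for transcript length and library size. Granulosa and cumulus markers summed to between 16.8 and 19.04 TPM in control and between 16.7 and 22.27 TPM in irradiated oocytes over the 7 of 10 listed in the table, and Foxl2, Amh and Amhr2 are not listed in the table analysed. Theca and stroma markers summed to at most 0.23 TPM over 2 of 5 listed genes, and Cd68, the only blood marker of 3 that is listed, lay between 1.58 and 3.5 TPM. Irradiated library 2 stood apart from the rest. Of 12569 genes tested, 602 (4.79%) lay over 1 log2 unit from the median of the other 3 libraries there, against 159 to 171 genes in each other library. None of the 9 members was among them. Because of this library, gene totals called or at an unadjusted p under 0.05, and the median change of the members, are also given without it. The tallies of libraries that do not overlap and the medians by role use every library. Since each library is a pool, fewer oocytes that express a gene and less RNA per oocyte cannot be told apart.

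The RNA of the 9 genes covered a wide range of levels (per length, in TPM), and the forkhead factor led it. Foxo3 had 56.23 and 56.22 TPM without radiation and 67.0 and 53.6 TPM after it, above 90.3% of all genes listed. Rps6kb1 followed with 30.99 and 28.96 TPM against 28.96 and 45.62 TPM, the highest value in irradiated library 2. Pdpk1 lay between 7.86 and 12.92 TPM and Akt1 between 2.92 and 4.69 TPM. Below these kinases the levels drew close together. Pik3ca ranged from 1.86 to 2.22 TPM, Mtor from 1.36 to 1.89 TPM and Tsc1 from 1.08 to 1.54 TPM. Rptor reached 0.95 TPM at most, and Tsc2, the lowest of the 9 with 0.59 to 0.87 TPM, still lay above 41.1% of all genes. Neighbours in this order did not overlap over the 4 libraries except Pik3ca with Mtor, Mtor with Tsc1, and Rptor with Tsc2.

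**Figure D1:**
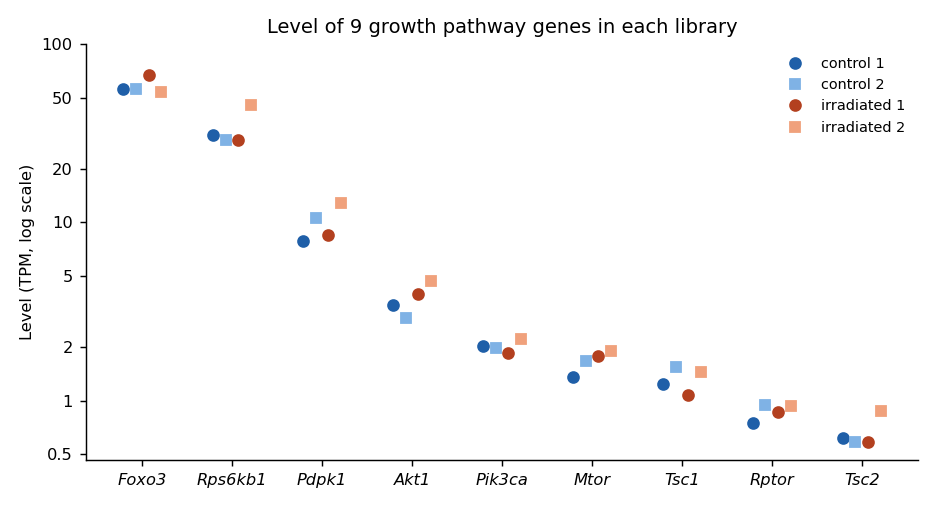
Level of each of the 9 genes in TPM (vertical axis, log scale) in the 4 libraries, 1 point per library, blue for control and red for irradiated. Foxo3 lies between 53.6 and 67.0 TPM and Tsc2 between 0.59 and 0.87 TPM, and the colours mix within most genes.

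Among the 9 genes and 60 further genes of the pathway in the table, the gene closest in level to each member was found by the mean absolute difference in log2(TPM + 1) over the 4 libraries, each member against 68 genes. Rptor lay closest to Ulk1, a kinase that starts autophagy, with a difference of 0.055. Pik3ca lay closest to Sesn3 (0.074), Akt1 to Stk11 (0.082) and Pdpk1 to Foxo1 (0.092). Tsc2 lay closest to Phlpp2 (0.12) and Tsc1 to Mlst8 (0.17). The genes with the most RNA had no near neighbour, since Rps6kb1 stood 0.26 from Gsk3b and Foxo3 0.32 from Rragc.

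Whether irradiation changed the RNA of the pathway was asked of gene totals, in which the counts of all transcripts of a gene are added up. None of the 9 members was called (a log2 fold change beyond 2 either way at an adjusted p below 0.05), where 1 of 12569 genes was called, or 0.00796%. None reached an unadjusted p of 0.05, which 744 genes or 5.92% did. Their adjusted p ran from 0.708 to 0.993 (quasi-likelihood test of edgeR, adjusted after Benjamini and Hochberg over every gene tested). The median log2 fold change, irradiated over control, was -0.09 over the 9 members and 0.010 over all genes tested. After TMM scaling both irradiated libraries lay below both controls in 3 of the 9 members, Pik3ca, Pdpk1 and Tsc1, where 19.8% of all genes did so. In 0 of the 9 did both lie above, where 22.1% of all genes did, and in the other 6 the conditions overlapped. This tally depended on the scale. In TPM 0 of the 9 lay below, where 5.88% of all genes did, and 2 lay above, Akt1 and Mtor, where 32.8% of all genes did. The 95% intervals of all 9 lay between -0.76 and 0.65, within 1 log2 unit of 0 in each gene. These intervals borrow the spread of other genes, because a condition has 2 libraries.

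**Figure D2:**
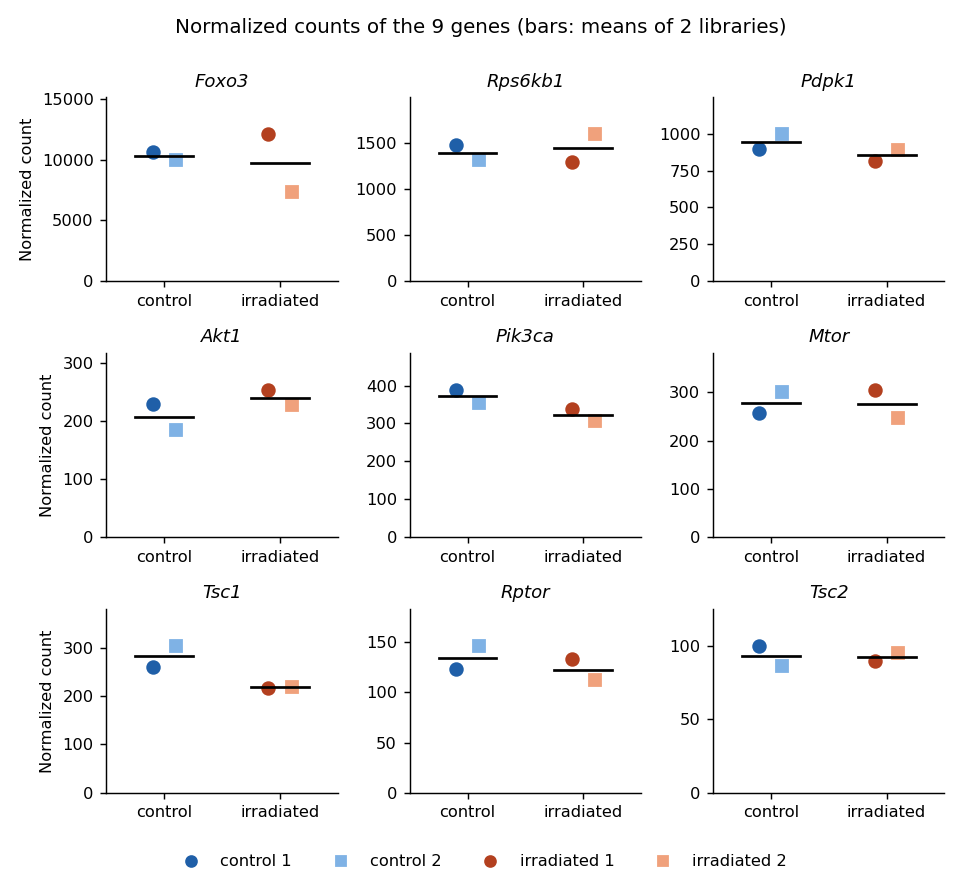
Normalized count (vertical axis, from 0) of each of the 9 genes in 2 control and 2 irradiated libraries, with a bar at each mean. Pdpk1, Pik3ca and Tsc1 have both irradiated points below both controls, and the irradiated points of Foxo3, 12089 and 7310, lie on either side of the controls.

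Pik3ca encodes p110α, a catalytic subunit of class I PI3K. It lies on chromosome 3 from 32397065 to 32466112 (GRCm38.p6, as all positions here), and its end overlaps Kcnmb3. The normalized count, a count scaled for library size with TMM factors, was 388 and 355 without radiation and 339 and 307 after it. The irradiated libraries were both lower, with a log2 fold change of -0.21 (standard error, SE, 0.15), adjusted p 0.724. It was -0.13 without irradiated library 2. On the TPM scale the conditions overlapped, and limma on log2(TPM + 1) put the difference at 0.014. Nearly all reads were assigned to 1 of its 2 listed transcripts, the predicted XM_006535409.4, with 379 and 328 estimated counts in control against 319 and 352 in irradiated oocytes.

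Pdpk1 and Akt1 encode the next kinases, PDK1 and AKT1, an AKT isoform that PDK1 activates. Pdpk1 (chromosome 17, 24073680 to 24155619) had normalized counts of 895 and 998 in control and 818 and 892 in irradiated oocytes, which is a log2 fold change of -0.15 (SE 0.14, adjusted p 0.748). The highest irradiated value lay just under the lowest control, and the direction turned when libraries were scaled by their size only (0.020) or compared as log2(TPM + 1) (0.18). Akt1 (chromosome 12, 112653821 to 112674884) was under TMM scaling the only member besides Rps6kb1 with a positive difference. Its normalized counts were 231 and 185 in control and 254 and 227 in irradiated oocytes, with a log2 fold change of 0.21 (SE 0.18), adjusted p 0.742. The normalized counts overlapped, since irradiated library 2 lay just under control library 1, while in TPM both irradiated libraries (3.97 and 4.69) lay above both controls (3.44 and 2.92). Akt1 was above 0 in each of 15 alternative settings, from 0.057 to 0.43, and was called in none of them.

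FOXO factors bind the element GTAAACA. The 250 bases upstream of each start in the RefSeq promoter table (GRCm38.p6) were searched for it on both strands, with 11 windows for the 9 members. Over all genes, 1040 of 32851 windows hold it, or 3.17%. Of the members only Akt1 had a match, in 1 of its 2 windows, read as TGTTTAC and starting 161 bases before the start site. The window also lies within the annotated lncRNA gene Gm30150. Of 8 known FOXO target genes 7 are in the promoter table, and Bcl2l11 alone had a match. A match is a run of letters and not a bound site, and these libraries do not measure binding. The Akt1 window and that of Foxo3, which has no match and is rich in G and C (76.4%, against a median of 52.4% for all windows), are shown with the match in capitals.
Akt1, chr12:112674885-112675134, minus strand: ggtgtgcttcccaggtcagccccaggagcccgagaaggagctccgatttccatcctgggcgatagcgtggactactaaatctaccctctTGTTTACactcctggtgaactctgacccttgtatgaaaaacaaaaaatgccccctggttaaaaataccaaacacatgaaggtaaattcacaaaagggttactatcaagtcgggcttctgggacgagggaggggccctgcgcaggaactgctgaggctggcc
Foxo3, chr10:42276696-42276945, minus strand: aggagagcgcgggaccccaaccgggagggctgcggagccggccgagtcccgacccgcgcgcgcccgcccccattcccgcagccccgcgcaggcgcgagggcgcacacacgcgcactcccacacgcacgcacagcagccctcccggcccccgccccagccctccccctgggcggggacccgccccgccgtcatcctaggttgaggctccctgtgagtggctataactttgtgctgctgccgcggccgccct

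Foxo3 encodes the forkhead factor that AKT removes from the nucleus and lies on chromosome 10 from 42181845 to 42276695. It had the most counts of the 9 genes and the widest spread between irradiated libraries. The normalized counts were 10653 and 9987 in control oocytes and 12089 and 7310 in irradiated oocytes, means of 10320 ± 471 and 9700 ± 3380 (SD, n = 2 libraries each). Irradiated library 1 was the highest of the 4 and irradiated library 2 the lowest, so the irradiated values enclosed the controls. The log2 fold change was -0.09 (SE 0.26, 95% interval -0.70 to 0.52, adjusted p 0.911). Leaving out 1 irradiated library at a time turned the direction. Without irradiated library 2 it was 0.23 (adjusted p 0.351). Without irradiated library 1 it was -0.51 (adjusted p 3.73e-06) in a fit that takes the remaining irradiated library to vary like the controls and gives 5395 of 13011 genes (41.5%) an unadjusted p under 0.05. Over the 14 alternatives with a value the adjusted p ran from 3.73e-06 to 1.00. The value also turned, to 0.031, with library size alone and, to 0.091, on the log2(TPM + 1) scale. Of its 2 listed transcripts the predicted XM_006512806.2 held all but 1 of the estimated counts (10394, 9214, 11368 and 8489), and the known transcript NM_019740.2 was listed with 0, 1, 0 and 0.

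Tsc1 and Tsc2 encode hamartin and tuberin, which form the complex that turns RHEB off. Tsc1 (chromosome 2, 28640993 to 28691172) had the largest difference of the 9 genes in the fit of 4 libraries. The normalized counts were 260 and 305 in control and 218 and 220 in irradiated oocytes, means of 282 ± 31.3 and 219 ± 1.11 (SD, n = 2 libraries each). Both irradiated libraries were lower and lay close together. The log2 fold change was -0.37 (SE 0.17, 95% interval -0.76 to 0.025) and the adjusted p was 0.708 (0.062 before adjustment over all genes, edgeR). Without irradiated library 2 it was also -0.37, and it stayed below 0 in each of 15 alternative settings, from -0.49 to -0.079, although on the TPM scale the libraries overlapped. Tsc2 (chromosome 17, 24595816 to 24632676, its end overlapping Pkd1) had the fewest counts, with normalized counts of 100.1 and 86.0 in control and 90.0 and 95.2 in irradiated oocytes. The libraries were interleaved, and the log2 fold change was -0.0073 (SE 0.21, adjusted p 0.993), with either sign when 1 library was left out (-0.12 to 0.11).

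Mtor and Rptor encode the kinase of mTORC1 and raptor, the scaffold that brings it substrates. Mtor (chromosome 4, 148448582 to 148557685, with Angptl7 inside it) had normalized counts of 257 and 300.2 in control and 305 and 248 in irradiated oocytes. The order crossed between libraries, and the log2 fold change was -0.013 (SE 0.18, adjusted p 0.983), between -0.18 and 0.13 when 1 library was left out. In TPM both irradiated libraries of Mtor (1.78 and 1.89) lay above both controls (1.36 and 1.68). Rptor (chromosome 11, 119602905 to 119899591) had normalized counts of 123 and 146 in control and 133 and 112 in irradiated oocytes, which is a log2 fold change of -0.14 (SE 0.21, adjusted p 0.831). Its conditions overlapped too, and the value was -0.016 without irradiated library 2, 0.0071 with library size alone and 0.040 on the log2(TPM + 1) scale.

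Rps6kb1 (chromosome 11, 86498869 to 86544885, its end overlapping Rnft1) encodes S6 kinase, the mTORC1 effector that phosphorylates ribosomal protein S6. The normalized counts were 1472 and 1307 in control and 1288 and 1591 in irradiated oocytes. The irradiated libraries lay on either side of the controls, as those of Foxo3 did but with library 2 the higher. The log2 fold change was 0.052 (SE 0.16, adjusted p 0.917), and it was -0.11 without irradiated library 2.

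**Figure D3:**
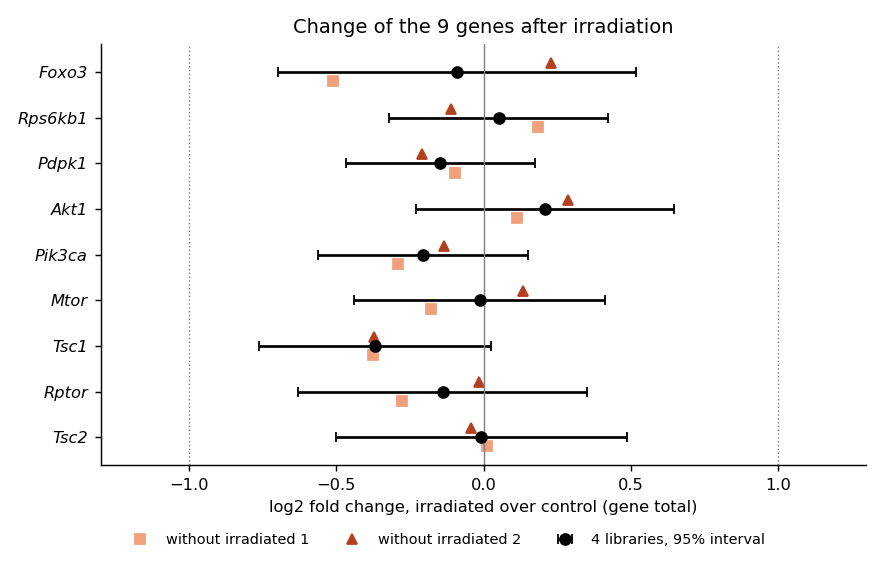
Log2 fold change of the gene totals, irradiated over control (horizontal axis), for the 9 genes (vertical axis), as a black point with its 95% interval from 4 libraries, a square without irradiated library 1 and a triangle without irradiated library 2. All black intervals include 0 and stay inside the dotted lines at 1 log2 unit, and the square and triangle of Foxo3 lie on opposite sides of 0.

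Reads of a gene had been divided among its transcripts before deposit, and over all features tested transcripts varied more than gene totals. The common dispersion, the squared relative spread between replicates, was 0.473 over all transcripts tested and 0.0251 over all gene totals tested. It is not a value of the members alone. Of the 46 transcripts 25 could be tested, and 0 were called (0% of 26645 transcripts tested, of which 1306 had an unadjusted p under 0.05). An unadjusted p under 0.05 was reached by 6 of the 25, with adjusted p from 0.777 to 0.880. Of these 6, 4 had 0 counts in both libraries of one condition and passed the filter on low counts through the other condition alone, so that they had to differ, and nothing is read from the count. DESeq2 without a filter called 246 transcripts of the whole table and none of the members. The exact test of edgeR called 299, of which 1 belongs to a member.

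That transcript was XM_017317391.2 of Tsc2, predicted by computation. It had 0 counts in both controls and 33 and 35 estimated counts in the irradiated libraries, where it made up 38.9% and 32.1% of the gene total. Its level was at least 10.5-fold higher after irradiation, taking 3 counts per library as the floor, and the adjusted p was 0.777 by the quasi-likelihood test and 0.0393 by the exact test of edgeR, and from 0.159 to 1.00 in the other alternatives. Like the other transcripts at 0 in one condition, it entered the test only because it is high in the other, so these p-values are a description. NM_001286713.1 of the same gene showed the opposite, with 17 and 21 counts in control oocytes and none after irradiation (0 in both), at least 6.72-fold lower. NM_001286716.1 had 3 and 0 control counts against 6 and 12, too few to be tested. Tsc2 counts were spread over 15 transcripts, while the total stayed between 79 and 110 counts. No Tsc2 transcript had over 3 counts in all 4 libraries.

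Mtor and Tsc1 each have a known transcript whose count was lower in both irradiated libraries. NM_020009.2 of Mtor had 71 and 82 control counts against 24 and 39 after irradiation, a log2 fold change of -1.43 (SE 0.42, unadjusted p 0.030, adjusted p 0.825). The predicted XM_006539077.3, the larger of the 2 Mtor transcripts, had 180 and 195 against 263 and 249 counts, so its share of the gene went from 71.9% and 70.2% to 91.8% and 86.4%. With known transcripts only, Mtor stood at -1.44 (adjusted p 0.807, and from 0.429 to 1.00 over the alternatives). NM_022887.4 of Tsc1 had 147 and 226 control counts against 87 and 107 after irradiation, a log2 fold change of -1.08 (SE 0.34, unadjusted p 0.035, adjusted p 0.880). The other known Tsc1 transcript, NM_001289576.1, overlapped between conditions with 107 and 55 against 84 and 148 counts.

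Minor transcripts of Pdpk1 and Rptor had counts in the controls only. XM_017317321.2 of Pdpk1 had 16 counts in each control and 0 in each irradiated library, at least 5.95-fold lower against the floor. XM_006534361.4 of Rptor had 16 and 18 counts in control and again 0 in each irradiated library, at least 6.11-fold lower, while the main transcript XM_006534362.1 had 104, 117, 93 and 130. Both minor transcripts took few of the reads of their gene, at most 13.3% for Rptor and 1.88% for Pdpk1. The Pdpk1 transcript with the most counts over the 4 libraries, XM_017317322.1, had 676 and 392 control counts against 537 and 248 after irradiation. Per length, NM_001080773.2 lay above it in each library, with 4.17 and 6.57 TPM in control and 5.24 and 8.49 TPM in irradiated oocytes, and was named after its values were seen. Pdpk1 also had a transcript that followed the replicate number and not the condition. NM_011062.4, also chosen in that way, had 0 counts in both libraries numbered 1 and 246 and 413 counts in control and irradiated library 2, or 26.7% and 39.9% of the gene.

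In Akt1 and Rps6kb1 the same transcript held the most counts in all 4 libraries. NM_001331107.1 of Akt1 had 225 and 134 against 239 and 264 counts, 78.1% of the gene in control library 2 and 100% in each other library. XM_006534315.4 of Rps6kb1 had 793 and 738 against 725 and 1017 counts, between 55.0% and 61.2% of the gene. Per length it came after XM_017314792.2, named after its values were seen, which had 15.21 and 13.68 against 14.7 and 22.02 TPM where XM_006534315.4 had 12.18 and 12.74 against 12.1 and 18.16 TPM. Its known transcript NM_028259.4 was scarce, with 4 and 7 against 3 and 1 counts. Isoform usage, which asks whether a transcript changed its share within the gene, could be tested in 6 members and was called in 0 of them, with 16 of 6323 genes called in all, or 0.253%. The smallest p was that of Rptor, 0.0152 unadjusted and 0.423 after Benjamini-Hochberg adjustment over all genes in edgeR's diffSpliceDGE test. Of its 2 tested transcripts, XM_006534361.4 had 0 counts in each irradiated library and entered the test through the controls alone. Its share had to differ, so this p is a description.

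**Figure D4:**
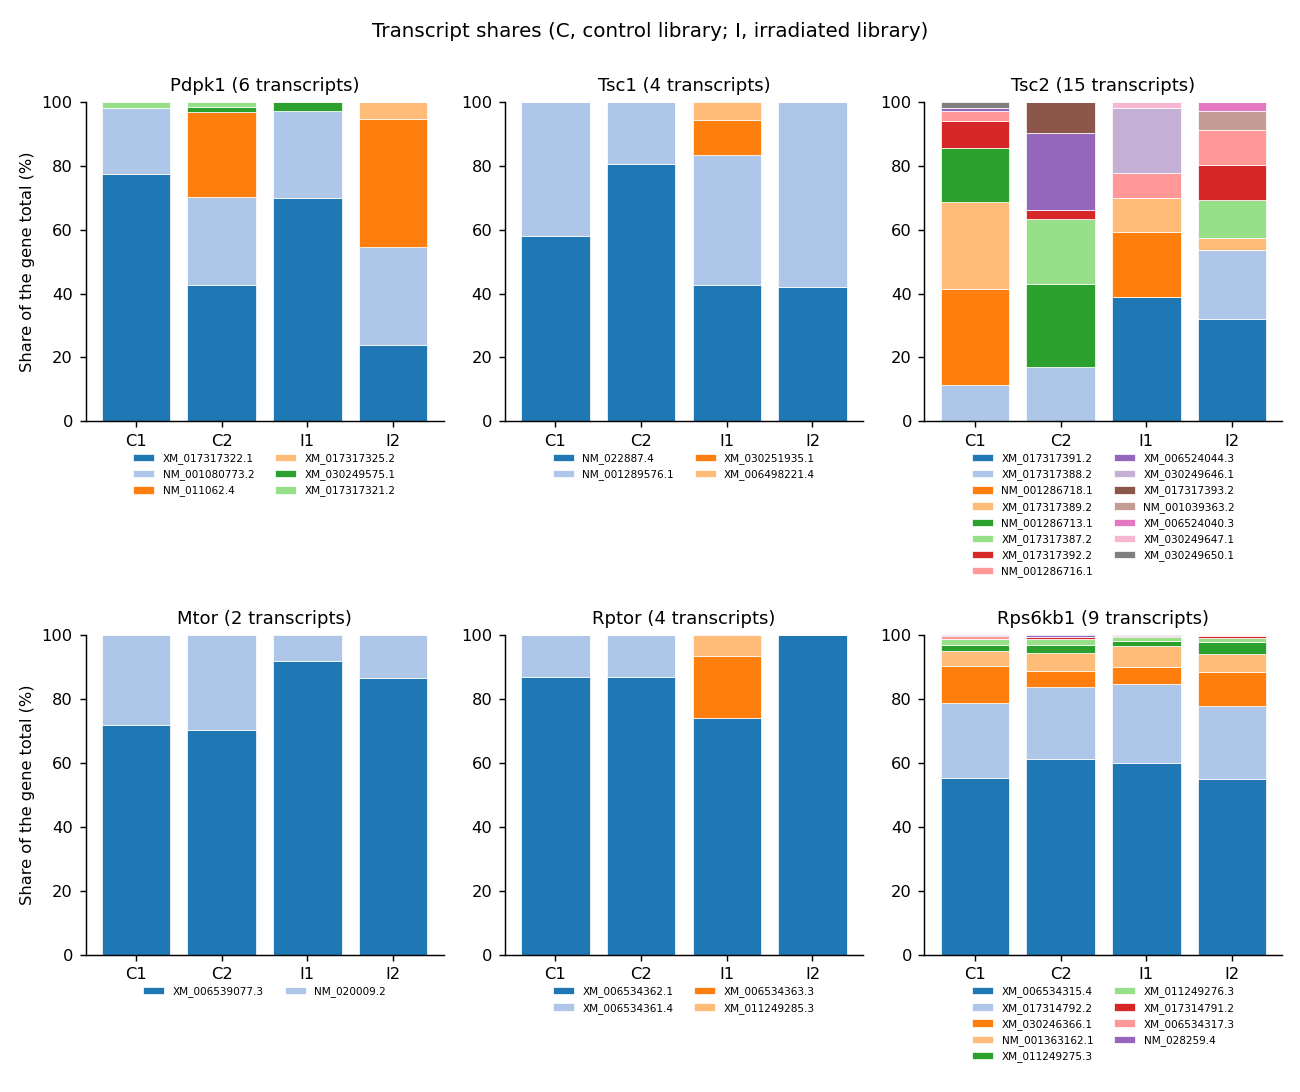
Share of the gene total in percent (vertical axis, stacked to 100) held by each listed transcript in control libraries C1 and C2 and irradiated libraries I1 and I2, for the 6 members with more than 1 tested transcript. XM_006539077.3 of Mtor takes 91.8% and 86.4% in the irradiated bars, NM_011062.4 of Pdpk1 appears in C2 and I2 alone, and the Tsc2 bars differ between replicates.

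Around the members, 61 further genes of the pathway were grouped by role, of which 60 are listed and 52 could be tested. Of these 0 were called, and 3 had an unadjusted p under 0.05, a share near the 5.92% of all genes. They were the PI3K regulatory subunits Pik3r1 and Pik3r2 and the mTORC2 subunit Prr5. The median log2 fold change of the 52 was -0.051. After TMM scaling both irradiated libraries lay above both controls in 9 of the 52 (22.1% of all genes) and below in 17 (19.8% of all genes). This tally and those by role below depended on the scale, as that of the members did. In TPM some genes moved from below to overlapping, or from overlapping to above, and the 52 were not tallied on that scale. Over all genes 32.8% lay above and 5.88% below in TPM. Without irradiated library 2, 54 could be tested, with 0 past an adjusted p of 0.05, and those 3 genes and Akt1s1 had an unadjusted p under 0.05, where 1277 of 12761 genes (10%) had one. In irradiated library 2 itself 6 of the genes lay over 1 log2 unit from the median of the other libraries, Inpp4a, Gsk3a, Akt1s1, Rraga and Ddit4 above and Rictor below.

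Upstream of PI3K, the ligand and its receptor were both lower in both irradiated libraries and were not called. Kitl, the KIT ligand that granulosa cells make and thus also on the list of their markers, had normalized counts of 228 and 235 in control and 191 and 148 in irradiated oocytes (log2 fold change -0.45, SE 0.19, adjusted p 0.708). Kit, its receptor on the oocyte, had 1878 and 2200 against 1860 and 1477 normalized counts, a log2 fold change of -0.29, and overlapped between conditions in TPM. Without irradiated library 2 the values were -0.27 for Kitl and -0.13 for Kit. Of the 4 genes tested in this group 3 had both irradiated libraries below both controls (19.8% of all genes), the median log2 fold change was -0.37, and 0 were called.

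The PI3K subunits differed in both directions, and 0 of 5 were called. Pik3r1, which encodes the p85α regulatory subunit, had normalized counts of 1142 and 1272 in control and 1029 and 765 in irradiated oocytes, which is a log2 fold change of -0.43 (SE 0.17, unadjusted p 0.044, adjusted p 0.708). Pik3r2, the p85β subunit, had far fewer, 42.0 and 71.5 against 96.8 and 87.0, and a log2 fold change of 0.70 (SE 0.29, unadjusted p 0.049, adjusted p 0.708). Without irradiated library 2 the values were -0.23 and 0.78. Pik3cd, the catalytic subunit p110δ with the highest level of the group (16.3 TPM in control and 19.1 TPM in irradiated oocytes), differed by -0.025, and by 0.14 without irradiated library 2. Among the phosphatases that oppose PI3K, Inpp4a stood at 0.82, a value set by 1 library, with 1629 and 1532 in control and 1653 and 3911 in irradiated oocytes, and at 0.065 without irradiated library 2.

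The other AKT kinases and GSK3, which AKT inhibits, had the highest group median, 0.35. Akt2 had 124 and 129 against 141 and 188 normalized counts, a log2 fold change of 0.38 (SE 0.21, adjusted p 0.708), which was 0.16 without irradiated library 2 and -0.97 with known transcripts only. Gsk3b, the most abundant of the group, had 4590 and 3815 against 4204 and 6246 normalized counts and a log2 fold change of 0.31, which was 0.0010 without irradiated library 2. Foxo1, the only other FOXO factor tested, had 1364 and 1415 against 1327 and 1410 normalized counts and a log2 fold change of -0.022, and -0.066 without irradiated library 2. Of 7 tested FOXO target genes, 1 had both irradiated libraries above both controls (22.1% of all genes) and 1 below (19.8%) after TMM scaling, with a median log2 fold change of 0.045. In TPM Bcl2l11, Sod2 and Pik3ip1 lay above, and Cdkn1b, the gene below after TMM scaling, overlapped. These genes were named here after their values were seen. Bnip3, a mitophagy receptor and the most abundant of the 7, had 1742 and 1803 against 1685 and 2256 normalized counts, a log2 fold change of 0.15 that was -0.073 without irradiated library 2.

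In the mTOR branch the small GTPase Rheb had 4144 and 4231 against 3976 and 3487 normalized counts, both irradiated libraries lower with a log2 fold change of -0.17, which was -0.074 without irradiated library 2 and 0.050 on the log2(TPM + 1) scale. Rictor, the scaffold of mTORC2, had 2058 and 2249 in control and 2251 and 662 in irradiated oocytes. Its log2 fold change of -0.57 (SE 0.48, adjusted p 0.739) became 0.065 without irradiated library 2. Akt1s1, named after its values were seen, encodes PRAS40, an inhibitor of mTORC1. It had 48.2 and 71.5 against 37.2 and 247 normalized counts, 1.27 with 4 libraries and -0.68 without irradiated library 2. Mapkap1, a further mTORC2 subunit, had 2923 and 2746 against 2683 and 1876 normalized counts, with a log2 fold change of -0.31 that was -0.079 without that library. Prr5 had 397 and 532 against 552 and 778 normalized counts, a log2 fold change of 0.52 (SE 0.22, unadjusted p 0.048, adjusted p 0.708), and 0.25 without irradiated library 2.

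Of the nutrient and energy inputs, Rragc, a GTPase that brings mTORC1 to the lysosome, was the most abundant and lay at -0.097 with overlapping libraries, and at 0.051 without irradiated library 2. Among effectors, Rps6, the S6 kinase substrate, had 402 and 423 against 371 and 279 normalized counts (log2 fold change -0.34). Eif4ebp1, the translation repressor that mTORC1 phosphorylates, had 392 and 405 against 447 and 557 (0.33), and its partner Eif4e, the cap-binding factor, had 24030 and 23380 against 22106 and 17530 (-0.26). The normalized counts of each of the 3 did not overlap between conditions, with an adjusted p between 0.708 and 0.737, while Eif4e overlapped in TPM. Of the 7 genes tested in this group, 2 had both irradiated libraries above both controls (22.1% of all genes) and 3 below (19.8% of all genes) after TMM scaling. In TPM Eif4b and Rps6kb2 lay above as well, Ulk1 overlapped as Eif4e did, and Rps6 stayed below. Eif4b, Rps6kb2 and Ulk1 were named here after their values were seen. Without irradiated library 2 the values were -0.15 for Rps6, 0.17 for Eif4ebp1 and -0.10 for Eif4e. Eif4e was the most abundant gene of the wider list, with 503 TPM in control and 486 TPM in irradiated oocytes.

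**Figure D5:**
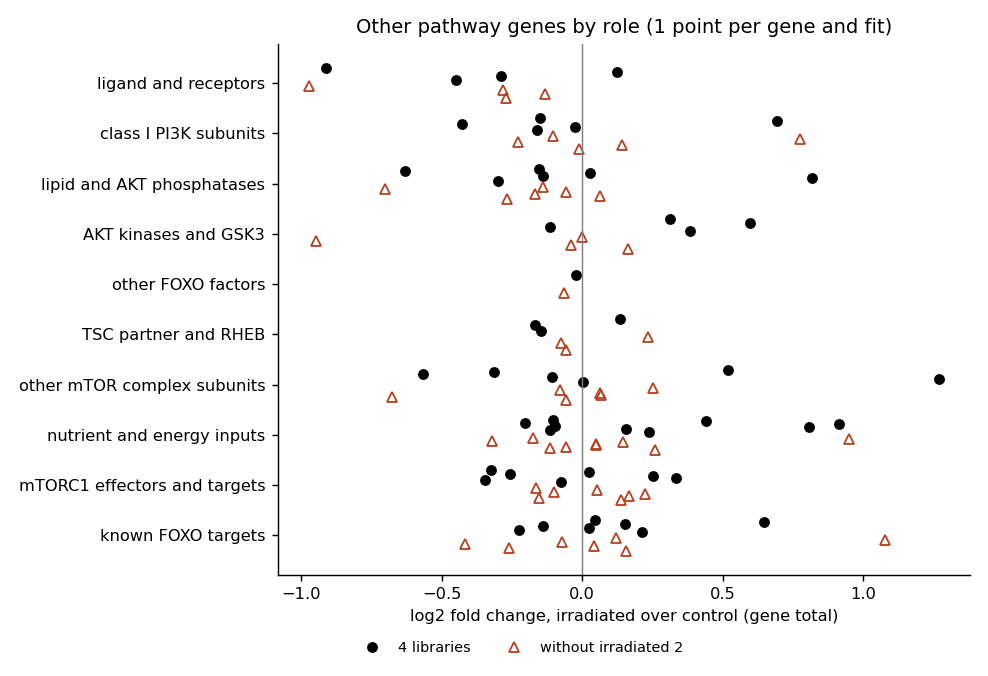
Log2 fold change of the gene totals, irradiated over control (horizontal axis), for the 52 further pathway genes tested with 4 libraries (black points) and the same genes without irradiated library 2 (open triangles), by role (vertical axis). The black points run from -0.91 for Insr to 1.27 for Akt1s1, and Gsk3b goes from 0.31 with 4 libraries to 0.0010 without irradiated library 2.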

How the data were processed

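RNA-seq was analysed in 4 libraries, grouped by the treatment in their labels. The authors deposited 1 table that lists an estimated count and a TPM value per library for every RefSeq transcript, with FPKM values and averages (10 columns, not used here). Per the labels, the submitters' processing notes name HISAT2, Bowtie2 and RSEM, without versions or roles, and the build mm10; the strand used in counting is not given in the sources used here, so a gene that overlaps another may share reads with it. The deposited estimated counts were rounded and gene totals summed by gene ID.

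In R 4.3.3, gene totals and transcripts were compared by the quasi-likelihood test of edgeR 4.0.16, after filterByExpr (minimum count 10) and TMM scaling and without a block. Each adjusted p follows Benjamini and Hochberg over all genes, or all transcripts, tested. Called features differed by more than 2 log2 units, up or down, at an adjusted p below 0.05. Isoform usage was tested with diffSpliceDGE and Simes' method. Alternatives used DESeq2 1.42.0 and limma 3.58.1, where fold changes on log2(TPM + pseudocount) understate those of low genes. A fold against a condition at 0 is a lower bound against 3 counts per library. Figures used matplotlib 3.10.9. The labels number the replicates without saying that they came from separate animals, so p-values measure the spread between these libraries.

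The members and gene lists were chosen with earlier results of these data known. Named were the 9 members. Of the wider list, genes with an unadjusted p under 0.05, the most abundant gene of each role, and Kit, Kitl, Rictor, Akt2, Foxo1, Rheb, Rps6 and Eif4ebp1 were named. Of transcripts, that with the most counts of each member was named, with those of an unadjusted p under 0.05 or of over 3 counts in both libraries of 1 condition only. Some genes that this rule names are not reported here.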

Additional observations from a re-analysis of the deposited data

How the results depend on the processing

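The members had 0 calls among gene totals and 0 changes of isoform usage under each alternative run, and 0 called transcripts except for 1 in edgeR's exact test. The number of members at an unadjusted p under 0.05 was 1 with known transcripts only (Mtor) and between 0 and 3 when 1 library was left out. Without irradiated library 1 these were Pik3ca, Foxo3 and Tsc1, where 41.5% of all genes had such a p, and without irradiated library 2 Foxo3 and Tsc1, where 10% had. The count of wider pathway genes called was 0 in each setting but 1, Akt1s1 without irradiated library 1 (0 to 1 over the libraries left out).

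The median log2 fold change of the 9 members was 0.10 with limma on log2(TPM + 1), with the filter or without it, and 0.20 on log2(TPM + 0.1), against -0.09 in the fit reported. These scales moved all genes as well. The median of all genes was 0.010 in the fit reported, 0.17 with library size only, 0.14 on log2(TPM + 1) (0.079 without a filter) and 0.21 on log2(TPM + 0.1). In each of these the members' median lay within 0.19 of that of all genes. That distance is the SD between replicates of the members' median level, which is not the error of a difference between medians. With 1 library left out the members' median ran from -0.18 without irradiated library 1 (0.013 over all genes) to -0.043 without irradiated library 2 (0.0026 over all genes).

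Single genes changed sign with the scale or with the set of transcripts counted. The latter also turned Inpp4a, Akt2, Gsk3b and Rictor, which stood at 0.82, 0.38, 0.31 and -0.57 in the fit reported. On log2(TPM + 1), with or without a filter, the log2 fold change was 0.014 for Pik3ca, 0.18 for Pdpk1, 0.091 for Foxo3, 0.10 for Tsc2, 0.17 for Mtor, 0.040 for Rptor, 0.22 for Pik3cd, 0.19 for Foxo1, 0.050 for Rheb and 0.12 for Rragc. On log2(TPM + 0.1) it was 0.019 for Pik3ca, 0.20 for Pdpk1, 0.092 for Foxo3, 0.21 for Tsc2, 0.26 for Mtor, 0.081 for Rptor, 0.23 for Pik3cd, 0.20 for Foxo1, 0.051 for Rheb and 0.12 for Rragc. With library size only it was 0.020 for Pdpk1, 0.031 for Foxo3, 0.16 for Tsc2, 0.13 for Mtor, 0.0071 for Rptor, 0.12 for Pik3cd, 0.14 for Foxo1 and 0.048 for Rragc. With known transcripts only it was 0.23 for Pdpk1, -0.15 for Inpp4a, -0.97 for Akt2, -0.41 for Gsk3b and 0.11 for Rictor, since reads of the predicted transcripts were left out. Pik3ca and Rptor have no known transcript in the table, and that of Foxo3 had too few reads to be tested.

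When 1 library was left out, and a lone library was taken to vary like the others, the sign turned within these ranges: -0.51 to 0.23 for Foxo3, -0.12 to 0.11 for Tsc2, -0.18 to 0.13 for Mtor, -0.11 to 0.18 for Rps6kb1, -0.22 to 0.14 for Pik3cd, -0.066 to 0.0096 for Foxo1, -1.71 to 0.065 for Rictor, -0.27 to 0.051 for Rragc and -0.073 to 0.34 for Bnip3. The cause was not tested.

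Over all genes, 1 call became 0 with library size only, limma-voom, limma on each TPM scale and known transcripts only, 3 without a filter, 5 with DESeq2, 10 with the exact test and 16 to 84 with 1 library left out, the 84 without irradiated library 1. Transcripts called went from 0 to 246 with DESeq2 without a filter and 299 with the exact test. Genes with changed isoform usage were 58 by the gene-level F test, 0 by limma's diffSplice and 1 to 29 with 1 library left out, against 16.

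Replicate numbers were shared between conditions, but deviations from the condition means correlated at only 0.078 over 12569 genes in 2 pairs, so the numbers were not taken to pair the libraries. With a replicate block 7 genes were called in place of 1 and 3 genes in place of 16 for isoform usage, and no member call changed. The quasi-likelihood test of edgeR gave 1299 genes an unadjusted p under 0.05 with the block, against 744 without it. The spread between replicate libraries was larger for transcripts (dispersion 0.473) than for gene totals (0.0251).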
